A study of Homo sapiens with 7 samples.

Results

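Histone H1 was called in both wild-type libraries at 398 places that NuMA antibodies also marked, and these places are described here. They were chosen by the calls of 4 measured peak lists, so the overlaps and peak values of those lists at the regions are a description without a test. A region was taken when a peak of the first wild-type H1 list overlapped, by at least 1 bp, a peak of the second wild-type H1 list and a NuMA site. A NuMA site was a peak of the antibody to the C terminus of NuMA that itself overlapped a peak of the antibody to its N terminus. The 398 regions were 8.74% of the 4552 H1 peaks of wild-type replicate 1 and 16.0% (14.6 to 17.5, exact 95% interval) of the 2485 H1 regions shared by the wild-type lists. They touched 3.83% (3.47 to 4.21) of the 10398 NuMA sites. All percentages of regions below carry exact (Clopper-Pearson) 95% binomial intervals where bounds are given. These cover counting error only, and neighbouring regions and regions of 1 library are not independent.

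Histone H1 is the linker histone. It binds the nucleosome where the DNA enters and leaves it and favours compact chromatin. NuMA is a large coiled-coil protein that lies in the nucleus between divisions and gathers at the spindle poles in mitosis, where it works with dynein to hold microtubule ends together.

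The cells were HCT116, an established human colon cancer line, and the assay was CUT&Tag, in which an antibody brings the Tn5 transposase to a protein so that the DNA beside it is cut and tagged. H1 was profiled in wild-type cells (2 libraries, titled NC) and in NuMA-depleted cells (2 libraries, titled AID), and NuMA in wild-type cells with each antibody (1 library each). The series title and design address whether NuMA bears on H1 binding to chromatin. The labels spell out neither title, say neither how nor how far NuMA was depleted, and do not say whether replicates were separate cultures, so clone and treatment cannot be told apart from depletion, and p-values cover library-to-library spread alone, possibly technical. An immunoglobulin library of wild-type cells was not analysed here, so background that any antibody would give was not tested.

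The deposited files were peak lists, 1 per library, on hg19. The H1 lists held 4552 and 5553 peaks in wild-type cells and 2616 and 1480 in depleted cells, and the NuMA lists held 14240 (C-terminal) and 19518 (N-terminal). Depth was read from the lowest local background of each list divided by the width of its shortest peak. Relative to wild-type replicate 1 it was 99.9% in wild-type replicate 2, 58.6% and 58.5% in the depleted libraries, 30.0% in the C-terminal and 49.7% in the N-terminal library. Both depleted libraries were shallower than both wild-type ones, so depth and depletion cannot be told apart.

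The 398 regions had H1 peaks of the same median width as the other shared regions, and fewer of them were among the tallest. A peak's fold is the authors' enrichment of fragments over local background at its summit, the highest point of the peak. The fold at these regions had a median of 6.58 (2.96 to 13.2 from lowest to highest) in wild-type replicate 1 and 6.34 (3.11 to 11.7) in wild-type replicate 2. The lower of both folds had a median of 5.98 (5.81 to 6.17, 95% interval) here and of 6.17 (6.09 to 6.25) at the other 2087 shared wild-type regions. These intervals overlap. In replicate 1 alone the medians were 6.58 (6.39 to 6.73) here and 6.74 (6.65 to 6.83) elsewhere, again with overlapping intervals. In replicate 2 alone they were 6.34 (6.18 to 6.48) here and 6.67 (6.56 to 6.76) elsewhere, with intervals that did not overlap. Of 4 groups of equal size by the lower fold, the highest held 72 of the 398 regions and 549 of the other 2087. The peaks were 432.5 bp wide in the median, against 432 bp at the other regions. Each rested on few fragments, with a median of 21 (10 to 81) at the summit in wild-type replicate 1 and 19 (10 to 101) in replicate 2. The log2 ratio of the folds of the wild-type lists, replicate 1 over replicate 2, was 0.04 ± 0.28 (SD over the 398 regions). This is the scatter of the ratio of both folds, over regions that both lists called.

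The region with the highest lower fold lay at chr6:7389733-7390368. Its wild-type folds were 11.0 and 9.79 and its depleted ones 9.64 and 11.4, so the ranges of the groups overlap. NuMA was low at the same place, with a C-terminal fold of 3.47 and an N-terminal fold of 2.62. The next, at chr7:107531503-107532025, had wild-type folds of 10.1 and 9.73 and depleted folds of 10.4 and 9.26, beside a C-terminal fold of 3.22 and an N-terminal fold of 5.20. NuMA was strong at others of the tallest, with folds of 12.2 and 9.03 at chr1:70876546-70876907 and 12.5 and 9.86 at chr12:51441683-51442155. Of the 10 regions highest by this measure, 9 were called in depleted replicate 1 and 8 in depleted replicate 2. Over all 2485 shared wild-type regions the lists called 50.5% and 33.1%, and of the others in the highest of 4 groups by fold they called 63.6% and 54.3%. The exception in replicate 1 was chr17:49337406-49337784, with wild-type folds of 9.72 and 10.5 and a fold of 5.98 in depleted replicate 2. The exceptions in replicate 2 were chr1:70876546-70876907 (9.53 and 11.3 in wild type, 6.44 in depleted replicate 1) and chr12:56842838-56843229 (9.31 and 10.05 in wild type, 8.98 in depleted replicate 1).

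The strongest NuMA sites among the 398 carried H1 peaks of middling height. At chr19:11485310-11485732 the NuMA folds were 17.9 (C-terminal) and 17.1 (N-terminal), and the wild-type H1 folds 5.42 and 6.12. At chr22:18111542-18111947 the N-terminal fold reached 23.4 and the C-terminal fold 13.8, with H1 folds of 7.05 and 7.44. Of the 5 regions with the highest lower NuMA fold, 2 were called in depleted replicate 1 and 0 in depleted replicate 2, beside 50.5% and 33.1% of all shared wild-type regions. Counts over 5 regions are too few to set against those shares. Besides the region on chromosome 22, those at chr17:45266519-45266868 and chr14:102414412-102414720 had no call in either depleted list.

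The regions were spread over 22 chromosomes, and most had no other within 100 kb. There were 49 on chromosome 1, 38 on chromosome 14, 34 on chromosome 17 and 29 each on chromosomes 2 and 19, and between 3 and 24 on each other autosome. None lay on X, where 22 shared H1 regions and 106 NuMA sites were called, which at 3 counts allows a share of up to 13.6% of the H1 regions and 2.83% of the sites (exact upper bounds 15.4% and 3.42%). None lay on Y either, with 17 H1 regions and 3 sites. No other such region lay within 100 kb of 354 of the 398, and the median gap to the nearest was 893 kb. The gaps that 398 regions placed at random would have were not computed. These values thus do not show whether the regions lie closer together or further apart than that.

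Chromosomes 14 and 19 differed in how H1 and NuMA met. Chromosome 19 held 17.7% of the NuMA sites and 3.30% of the shared H1 regions. Of its H1 regions 35.4% (25.1 to 46.7, 29 of 82) lay at a NuMA site, yet only 1.57% (1.06 to 2.25, 29 of 1842) of its sites carried such an H1 region. Chromosome 14 held only 2.85% of the NuMA sites but 9.55% of the 398 regions. There 12.8% (9.25 to 17.2, 38 of 296) of the sites and 23.2% (16.9 to 30.4, 38 of 164) of the H1 regions met. The interval for the sites of chromosome 14 lay wholly above that of chromosome 19 and above the 3.83% of all sites. Those of chromosomes 1, 2, 3, 4, 6, 10 and 18 also lay above 3.83%. The highest share of sites was on chromosome 18, 14.3% (5.94 to 27.2, 7 of 49). A high share of H1 regions beside a low share of sites was also present on chromosome 22 (30.0% and 1.21%), chromosome 17 (27.9% and 2.91%) and chromosome 16 (20.5% and 1.90%). Chromosome 8 had 196 shared H1 regions, more than chromosome 14, but only 6.63% (3.58 to 11.1) of them lay at NuMA sites. Gene number and copy number were not tested.

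**Figure D1:**
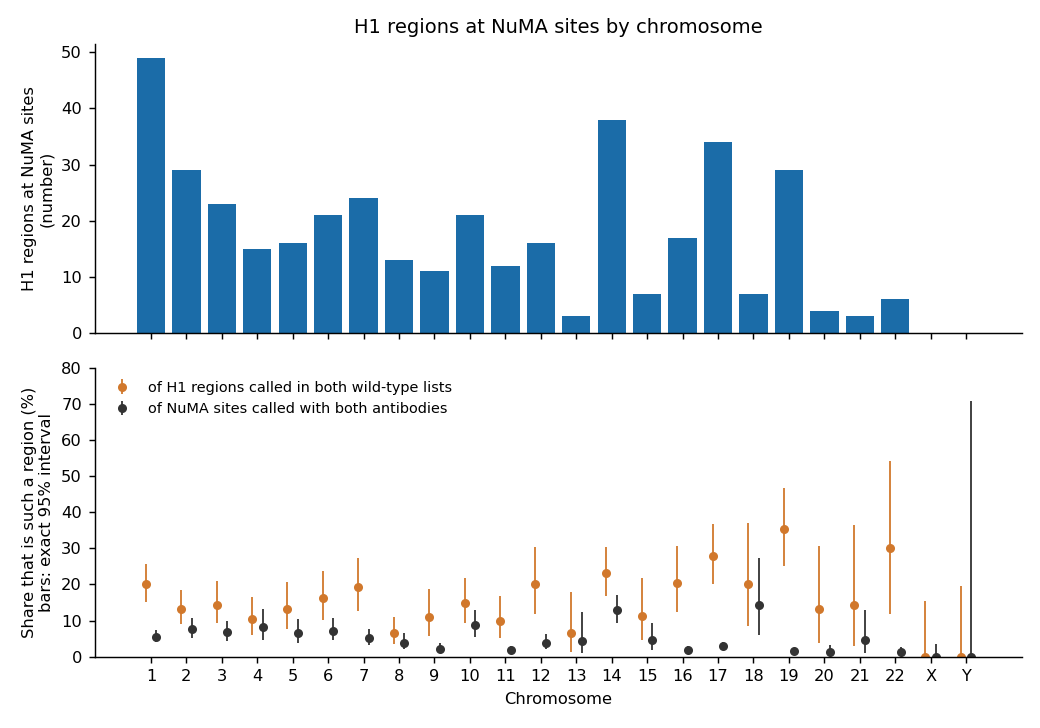
H1 regions at NuMA sites by chromosome: the upper panel counts them and the lower panel gives their share (%) among the shared wild-type H1 regions (orange) and among the NuMA sites (black), with exact 95% binomial intervals. Chromosome 19 stands highest among H1 regions (35.4%) and near the bottom among NuMA sites (1.57%), while chromosome 14 reaches 12.8% and chromosome 18 14.3% of their sites.

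A few stretches of chromosome held several regions. In windows of 5 Mb the fullest was 70 to 75 Mb on chromosome 17, with 13 of the 22 shared H1 regions of that window at one of its 146 NuMA sites. Next came 20 to 25 Mb on chromosome 14 and 45 to 50 Mb on chromosome 17, with 10 each. In the window from 75 to 80 Mb on chromosome 14 there were 6. At 160 to 165 Mb on chromosome 1 all 5 shared H1 regions lay at NuMA sites. The first 5 Mb of chromosome 19 held 528 NuMA sites and 5 of the 398 regions. Over the 62 regions in windows with 5 or more, depleted replicate 1 called 62.9% (49.7 to 74.8) and replicate 2 called 27.4% (16.9 to 40.2). Of all 2485 shared wild-type regions they called 50.5% and 33.1%, and of all 398 they called 58.5% and 28.4%.

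H1 and NuMA summits mostly lay apart. The median distance from the H1 summit of wild-type replicate 1 to the C-terminal summit was 206 bp (191 to 225, 95% interval), and to the N-terminal summit 234 bp (216 to 264). From the H1 summit of wild-type replicate 2 these distances were 221 bp (206 to 240) and 246 bp (222 to 267). The summits of the same protein lay nearer each other. The wild-type H1 summits were 70 bp (57 to 80) apart and the NuMA summits 53.5 bp (42 to 65) apart, in the same 398 regions. Within a region, the distance from H1 to the C-terminal summit exceeded that between the H1 replicates in 288 (72.4%) and that between the NuMA antibodies in 281 (70.6%). An H1 summit lay within 100 bp of the C-terminal summit in 109 regions (27.4%) and over 400 bp away in 69 (17.3%).

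**Figure D2:**
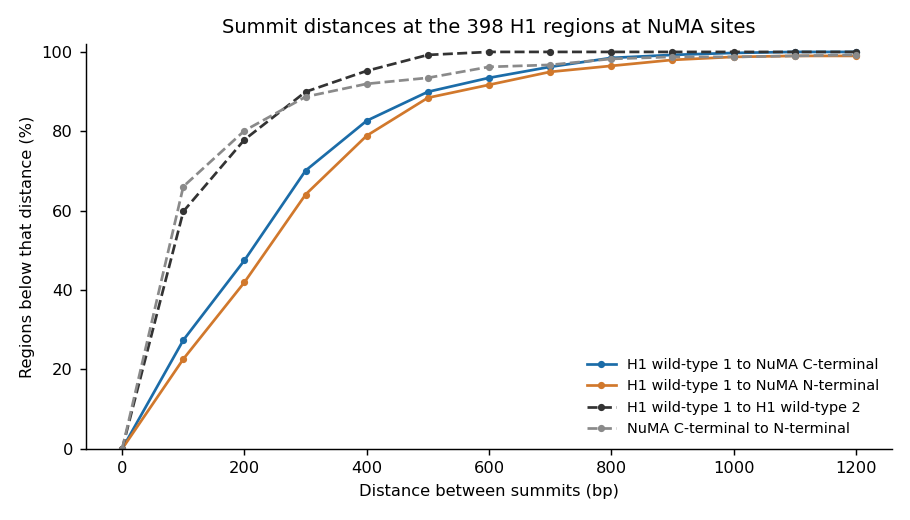
Share of the 398 regions (%) whose summits lie nearer than the distance on the x axis (bp), for H1 to each NuMA antibody (solid lines) and for the replicates of H1 and the antibodies of NuMA (dashed lines). Within 100 bp lie 59.8% of the H1 replicate pairs and 66.1% of the NuMA pairs, but 27.4% of the H1 to C-terminal pairs.

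The offset had no fixed direction along the chromosome, but its side was mostly the same across libraries, which the choice of regions by overlap favours. The H1 summit of wild-type replicate 1 lay at a higher coordinate than the C-terminal summit in 203 regions, at a lower one in 193 and at the same one in 2. In 289 regions the offset exceeded 100 bp. In 253 of these (87.5%) H1 lay on the same side of the N-terminal summit, and in 266 (92.0%) the summit of wild-type replicate 2 lay on the same side of the C-terminal one. Where a depleted list called the region, its summit lay on the same side in 154 of 168 (91.7%, replicate 1) and in 82 of 87 (94.3%, replicate 2). A depleted call means overlap with the wild-type H1 peak, and the other lists had to overlap for a region to be taken. Overlapping peaks tend to have summits on the same side, so these shares are no independent support. The H1 summit was nearer the C-terminal summit in 220 regions, nearer the N-terminal one in 166 and as near to both in 12.

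The ends of the range show how different these regions are. The H1 summit fell on the same base as the C-terminal summit at chr21:44299131-44299710 and chr16:4475451-4476076, with the N-terminal summit 2 and 81 bp away, and neither was called in a depleted list. The H1 and C-terminal summits were 2 bp apart at chr17:41466040-41466454, where the wild-type H1 folds were 8.46 and 11.2 and the depleted ones 10.5 and 9.73. The longest distance to the C-terminal summit, 1084 bp, was at chr3:9958536-9959026 in a C-terminal peak of 1812 bp, and no depleted list called it. At chr19:11485310-11485732, named above for its NuMA folds, the C-terminal summit was 906 bp away but the N-terminal summit 175 bp.

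H1 peaks either lay inside the C-terminal peak or crossed 1 of its edges. Of the 398, 200 (50.3%) lay wholly inside, 193 (48.5%) crossed 1 edge and 5 (1.26%) covered the whole C-terminal peak. Each region had a C-terminal peak of its own, and 394 also overlapped an N-terminal peak directly. The overlap with the C-terminal peak had a median of 383 bp (9 to 952 bp from smallest to largest). By summit, 210 regions (52.8%, 47.7 to 57.8) had H1 in the central 50% of the C-terminal peak, 129 (32.4%) in the outer 25% at either end and 59 (14.8%) beyond its edge, by 4 to 407 bp. The C-terminal peak's own summit fell in its central 50% at 302 of the 398 sites (75.9%, 71.4 to 80.0).

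Position varied with the width of the NuMA peak. Among the 200 regions whose C-terminal peak was no wider than the median of 781 bp, the H1 summit of wild-type replicate 1 was central in 35.5% (28.9 to 42.6) and that of replicate 2 in 35.0% (28.4 to 42.0). The C-terminal summit itself was central in 85.0% (79.3 to 89.6) of these. Among the 198 wider ones the H1 summit was central in 70.2% (63.3 to 76.5) in replicate 1 and 66.2% (59.1 to 72.7) in replicate 2, level with the C-terminal summit at 66.7% (59.6 to 73.2). This position is relative to the width of the peak, and in base pairs H1 was not nearer NuMA at wide peaks. The median distance to the C-terminal summit was 181, 197.5, 203 and 264 bp from the narrowest to the widest of 4 groups of equal size by width. The rule admits an H1 peak that only touches the site, so a narrow site leaves more of the admitted positions outside. Among H1 summits inside the C-terminal peak, the central share was still 44.3% (32.4 to 56.7) and 48.8% (37.6 to 60.1) in the narrower 2 of these groups. It was 73.6% (63.3 to 82.3) and 75% (65.1 to 83.3) in the wider 2.

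**Figure D3:**
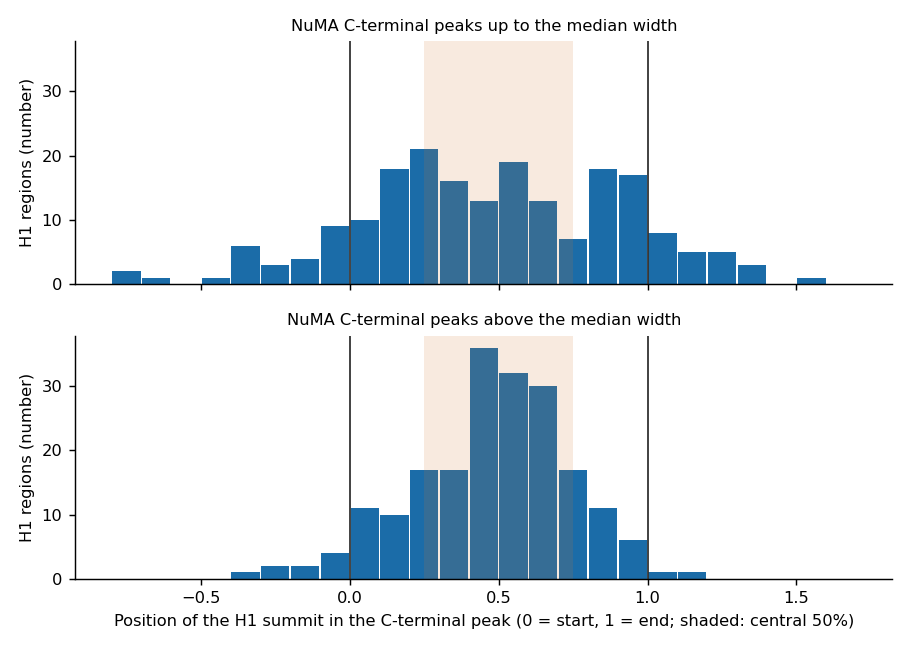
Number of regions by where the H1 summit of wild-type replicate 1 falls in the C-terminal peak, for the 200 regions with C-terminal peaks up to the median width (upper) and the 198 above it (lower). On the x axis 0 is the start and 1 the end of the peak, and the shaded band is the central 50%. At narrower peaks 35.5% lie in the band, at wider peaks 70.2%.

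The same split was present in each H1 library taken alone. For this, all peaks of a library at NuMA sites were used, whether or not another list called them, and the width split was chosen after the values above were seen. At C-terminal peaks up to 781 bp the wild-type libraries had central shares of 34.7% (29.5 to 40.1) and 35.4% (30.2 to 41.0), and the depleted ones 42.0% (35.1 to 49.2) and 36.7% (27.2 to 47.1). At wider ones the wild-type libraries had 64.4% (59.2 to 69.4) and 61.8% (56.5 to 67.0), and the depleted ones 63.6% (57.6 to 69.3) and 60.4% (50.2 to 70.0). The intervals of narrow and wide peaks did not overlap in these 4 libraries. The libraries share many regions, so they are not independent repeats of the split. Of the 680 peaks of wild-type replicate 1 at NuMA sites, 398 are the regions described here. At NuMA sites, 232 of 475 peaks of depleted replicate 1 and 108 of 199 of depleted replicate 2 overlapped both wild-type lists. Among summits inside the C-terminal peak, the shares at narrow and wide peaks were 46.1% (39.7 to 52.6) and 69.5% (64.2 to 74.4) in wild-type replicate 1 and 46.9% (40.4 to 53.4) and 67.5% (62.0 to 72.6) in wild-type replicate 2. They were 53.5% (45.4 to 61.5) and 70.9% (64.8 to 76.4) in depleted replicate 1. In depleted replicate 2 they were 48.6% (36.9 to 60.6) and 65.6% (55.0 to 75.1), and there the intervals overlap. Among peaks of depleted replicate 1 that no wild-type list called, which took no part in choosing the regions, the shares were 42.9% (27.7 to 59.0, 18 of 42) and 56.6% (45.3 to 67.5, 47 of 83), with intervals that overlap. In depleted replicate 2 they were 29.4% (5 of 17) and 63.2% (12 of 19), too few to separate.

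Over all peaks of a library at NuMA sites, the groups were compared by 1 value per library. The median distance to the C-terminal summit was 225 and 225 bp in the wild-type libraries and 216 and 219 bp in the depleted ones. The depleted values were both lower, by 7.5 bp in the mean (225 ± 0 against 217.5 ± 2.1, SD, n = 2 each). The exact two-sided permutation test gave p = 0.333, the smallest that 2 against 2 libraries allow, and with H1 lists of equal length the difference changed sign, to 2.75 bp. The central share was 50.3% and 49.2% with NuMA and 54.5% and 48.7% after depletion, and the groups overlap. The means were 49.8 ± 0.74% and 51.6 ± 4.1% (SD, n = 2 each, exact two-sided permutation test p = 1). The difference of 1.87 percentage points rested on depleted replicate 1, without which it was −1.03.

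By their medians, the NuMA sites that carried an H1 region had lower C-terminal folds and narrower N-terminal peaks than the rest. Their C-terminal peaks had a median width of 781 bp (745 to 837) and a median fold of 4.54 (4.25 to 4.90). At the 10000 sites without such a region the medians were 809.5 bp (799 to 820) and 4.98 (4.91 to 5.04). Their N-terminal peaks had a median of 940 bp (886 to 1010) and a fold of 5.80 (5.51 to 6.20), against 1050 bp (1032 to 1070) and 5.97 (5.91 to 6.03). The intervals of these 2 measures did not overlap, while the other 2 pairs did. The strong end went the other way, since the 90th percentile of fold was 10.5 with and 9.49 without an H1 region for the C-terminal antibody, and 11.2 and 10.4 for the N-terminal one. The summits of the antibodies were 53.5 bp apart here and 71 bp (68 to 75) elsewhere.

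Sorted by the same measures, the share of NuMA sites with an H1 region fell off among the widest sites. Sites were put into 5 groups of equal size. By N-terminal width, 3.70%, 4.99%, 5.11% and 3.85% of the sites in the 4 narrower groups held an H1 region, but only 1.49% (1.02 to 2.11) in the widest, whose peaks spanned 1917 to 15386 bp. By C-terminal width the widest group also had the lowest share, 2.64% (2.00 to 3.43), against 3.89% to 4.29% in the others. By C-terminal fold the share was highest in the weakest group, at 5.14% (4.23 to 6.18), and 3.99%, 3.17%, 3.08% and 3.75% in the others, so it rose again in the strongest. By N-terminal fold it ran from 3.22% to 4.47% with no order.

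**Figure D4:**
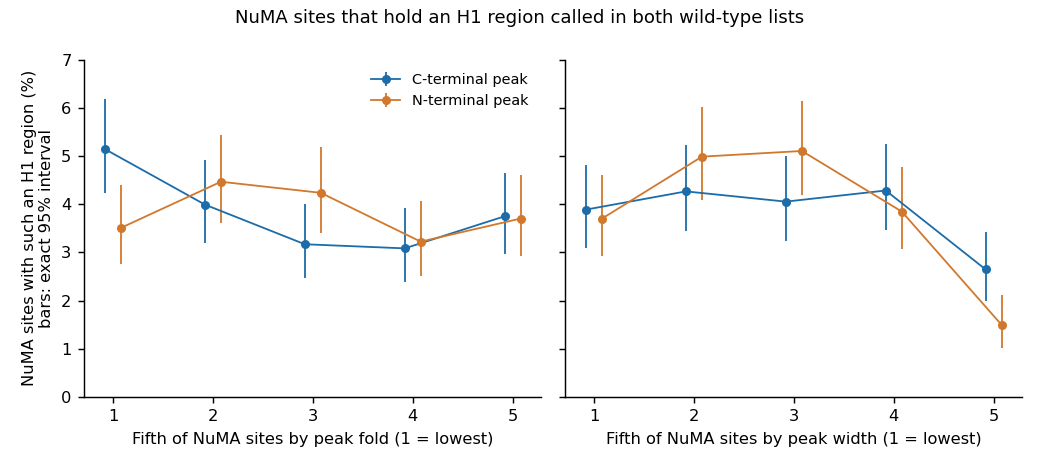
Share of NuMA sites (%) that hold a shared wild-type H1 region, in 5 groups of sites of equal size ordered by peak fold (left) and peak width (right) of the C-terminal (blue) and N-terminal (orange) peak, with exact 95% binomial intervals. The share is lowest at the widest N-terminal peaks (1.49%), and highest by C-terminal fold in the weakest group (5.14%).

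The depleted lists called different portions of the 398 regions. Depleted replicate 1 called 233 (58.5%, 53.5 to 63.4), where 50.5% of all 2485 shared wild-type regions were called. Depleted replicate 2 called 113 (28.4%, 24.0 to 33.1), where 33.1% of all shared regions were called. The first share thus lay above its background and the second below it, so the lists do not give 1 direction. The background includes the 398 regions. Of the other 2087 alone, replicate 1 called 49.0% (46.9 to 51.2), an interval apart from that of the 398. Replicate 2 called 34.0% (32.0 to 36.1) of them, an interval that overlaps that of the 398. With all H1 lists reduced to equal length, 70 regions met the rule, and the lists called 70.0% (57.9 to 80.4) and 47.1% (35.1 to 59.4) of them. No share over all shared regions was taken at that length, so these values have no background and cannot be set against 50.5% and 33.1%. At full length both lists called 86 regions (21.6%, background 23.9%), replicate 1 alone 147 (36.9%, background 26.6%), replicate 2 alone 27 (6.78%, background 9.22%) and neither 138 (34.7%, background 40.2%). Of the members of the longer list 36.9% were in the shorter, and of the shorter 76.1% in the longer. The widest gap from the background lay in the regions called in replicate 1 alone. The fold of the depleted peaks at these regions had a median of 7.12 (3.31 to 11.6) in replicate 1 and 7.02 (3.32 to 11.4) in replicate 2.

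List length and peak width differed between the depleted libraries although depth by the measure above did not. The median width of all H1 peaks was 413 bp in depleted replicate 1 and 308.5 bp in depleted replicate 2. In wild-type replicates 1 and 2 it was 399 and 365 bp. A call is an overlap with a peak, and the bearing of peak width on the calls was not tested. Shortened by fold to the 1480 peaks of the other depleted list, depleted replicate 1 held 40.7% (35.8 to 45.7) of the 398 regions and 33.7% (31.7 to 35.8) of the other 2087. Depleted replicate 2 held 28.4% and 34.0% (32.0 to 36.1). This shortening was chosen after the lists were seen. Regions at peaks of a single antibody were read the same way. Depleted replicate 1 called 55.7% of the 70 shared H1 regions at a C-terminal peak alone, 58.1% of the 377 at an N-terminal peak alone and 46.6% of the 1640 with no NuMA peak. Depleted replicate 2 called 48.6% (36.4 to 60.8), 31.0% and 34.1% of them. Its value at C-terminal peaks alone was the highest of its classes and that at sites of both antibodies the lowest.

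Tall and wide H1 peaks were called again most often, at NuMA sites as elsewhere. The shared regions were put into 4 groups of equal size by the lower wild-type fold. From the lowest to the highest group, depleted replicate 1 called 50%, 52.3%, 64.9% and 70.8% of the regions at NuMA sites and 40.5%, 42.2%, 48.8% and 63.6% of the others. Its share at NuMA sites was higher in all 4 groups. Depleted replicate 2 called 16.0%, 22.0%, 34.2% and 47.2% at NuMA sites and 24.4%, 23.4%, 32.5% and 54.3% elsewhere, so its lower share lay mainly in the lowest and highest groups. Among the widest H1 peaks, of 563 to 1076 bp, replicate 1 called 84.0% (75.3 to 90.6) and replicate 2 called 40.0% (30.3 to 50.3). Of the other regions in the widest group, which reached 3242 bp, they called 73.7% and 50.8%. Among the narrowest, of 291 to 367 bp, they called 43.0% (33.1 to 53.3) and 17% (10.2 to 25.8), against 28.3% and 22.7% of the others. Replicate 2 thus lay below the others, and replicate 1 above them, at both ends of width.

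**Figure D5:**
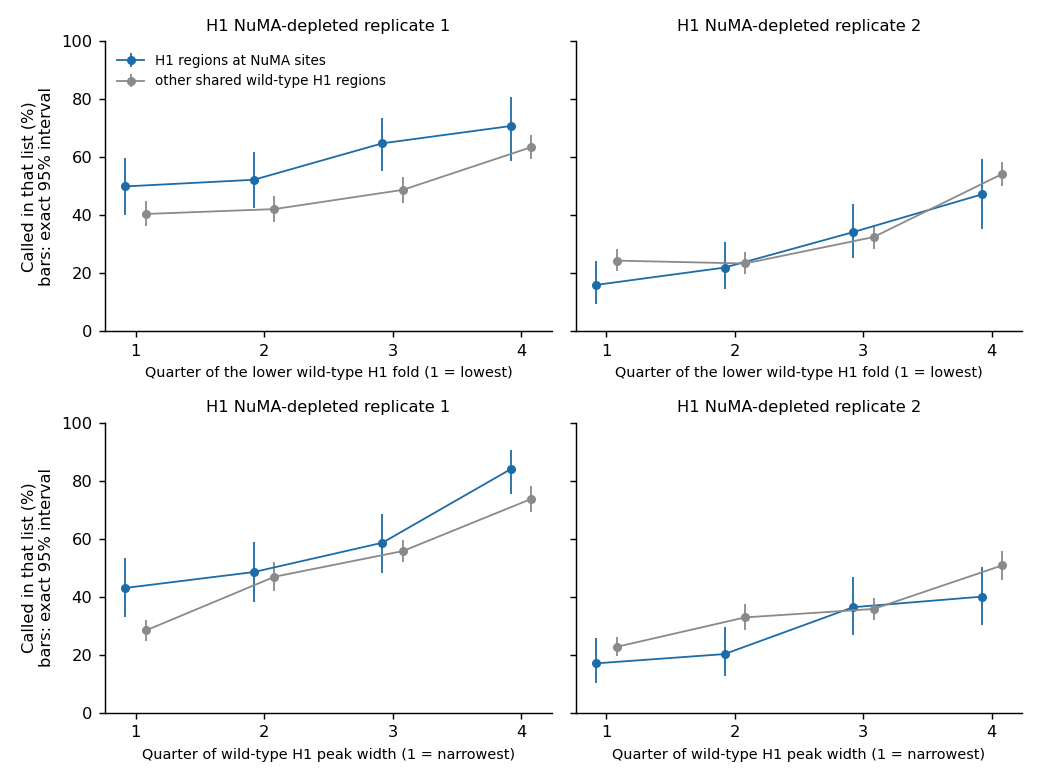
Share of regions (%) called in depleted replicate 1 (left) and replicate 2 (right) by group of the lower wild-type H1 fold (upper row) and of wild-type H1 peak width (lower row), for the regions at NuMA sites (blue) and the other shared wild-type regions (grey), with exact 95% binomial intervals. At NuMA sites the share rises with fold and width in both lists. The blue points lie above the grey ones throughout in replicate 1 (70.8% against 63.6% at the highest fold) and not in replicate 2 (47.2% against 54.3%).

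Calls were also set against NuMA's own strength at each region. In 4 groups of equal size by C-terminal fold, from weak to strong, depleted replicate 2 called 34.0%, 27.3%, 32.3% and 20.0% of the regions. By N-terminal fold it called 37.0% (27.6 to 47.2), 31.3%, 22.2% and 23% (15.2 to 32.5). Depleted replicate 1 called 67.0%, 52.5%, 58.6% and 56.0% by C-terminal and 65.0%, 55.6%, 53.5% and 60.0% by N-terminal fold. The weakest NuMA sites thus had the highest share in both lists, with intervals that overlap those of the strongest. By position of the H1 summit, replicate 1 called 61.9% of the central, 54.3% of the outer and 55.9% of the outlying summits, and replicate 2 called 27.6%, 27.9% and 32.2%, with overlapping intervals. Of the 27 regions called in replicate 2 alone, 6 (22.2%, 8.62 to 42.3) had a central summit, against 52 of the 86 (60.5%, 49.3 to 70.9) called in both. The share was 53.1% of the 147 called in replicate 1 alone and 53.6% of the 138 called in neither. Central summits were more common at wide C-terminal peaks, whose median width was 677 bp for the 27 and 892 bp for the 86. The part of width in this was not tested.

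By chromosome the calls were uneven. On chromosome 1 depleted replicate 1 called 69.4% (54.6 to 81.7, 34 of 49) of the regions at NuMA sites and 43.1% (36.0 to 50.3) of the other shared H1 regions. Depleted replicate 2 went the other way there, with 28.6% (16.6 to 43.3) and 39.0% (32.1 to 46.2). On chromosome 19 replicate 1 called 34.5% (17.9 to 54.3, 10 of 29) and 50.9% (36.8 to 64.9). Depleted replicate 2 called 44.7% (28.6 to 61.7, 17 of 38) of those on chromosome 14, against 34.9% (26.6 to 43.9) of the others there. It called 4 of 29 (13.8%, 3.89 to 31.7) on each of chromosomes 2 and 19, against 28.4% and 24.5% of the others. Of these pairs of intervals only that of replicate 1 on chromosome 1 did not overlap. The median lower wild-type fold was 5.49 on chromosome 19, 6.14 on chromosome 14 and 5.42 on chromosome 17. On chromosome 17 depleted replicate 1 called 55.9% (37.9 to 72.8) of the regions at NuMA sites and 40.9% (30.5 to 51.9) of the others. There depleted replicate 2 called 23.5% (10.7 to 41.2) and 25% (16.4 to 35.4). Both pairs of intervals on chromosome 17 overlap.

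Some regions of high wild-type fold had no call in a depleted list. The highest of the 138 in neither list was chr3:150320785-150321080, with 9.07 in replicate 1 and 8.83 in replicate 2. Next came chr2:170550934-170551277 (8.82 and 9.60), chr15:90701256-90701635 (8.29 and 8.34), chr16:53737782-53738081 (7.98 and 8.31) and chr2:46843756-46844325 (7.91 and 11.7). Their summit fragments in wild-type replicate 1 numbered 29, 18, 27, 27 and 18. The libraries that did not call them were 58.6% and 58.5% as deep, and a missing call does not show that H1 was absent.

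For a small number of regions at the rule's edge, 2 to 17 bp decided whether they were taken. The smallest overlaps with a C-terminal peak were 9 bp at chr2:11273132-11273425, 11 bp at chr3:150264392-150264788 and 17 bp at chr7:5862438-5862731, and 18 of the 398 regions overlapped by no more than 100 bp. Just outside, shared H1 regions missed a site by 2 bp at chr5:151150972-151151513, by 5 bp at chr2:74710108-74710460 and by 15 bp at chr1:27339451-27339802. Within 200 bp of a site lay 10 of the other 2087 regions. The wild-type folds were 6.02 and 6.11, 7.21 and 7.34, and 4.98 and 5.15 at the 3 outside and 5.06 and 6.21, 6.61 and 7.05, and 6.46 and 6.31 at the 3 inside.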

How the data were processed

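The regions, groups and alternatives were chosen with earlier results of these data known. The submitters' processing notes name MACS2, Picard, Bowtie2, Trim Galore and hg19. They state no version, and no tool's role. The deposited lists held, per peak, a start, an end and a summit offset (other values as deposited), a score, a fold (the authors' ratio of the summit to its local background), a −log10 p-value and a −log10 q-value as deposited. Peak names state a q limit of 0.001, and the names of the NuMA peaks say ChIP-seq where the labels say CUT&Tag. The deposited score was not used. Folds were not rescaled between lists. They were set across lists in the lower of both wild-type or both NuMA folds and in the log2 ratio of the wild-type folds. The same holds where wild-type and depleted folds stand side by side.

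Chromosomes 1 to 22, X and Y were kept, and 1 bp of overlap counted as shared. Where several peaks overlapped, the one with most overlap was taken. Fragments at a summit and local background were recovered from fold and −log10 p with a pseudocount of 1, and 98.84% to 100% of a list's counts came out whole within 0.01. The lowest background divided by the shortest peak served as relative depth. Medians carry 95% order-statistic intervals. Groups of H1 libraries were compared by an exact permutation test, and the overlap steps were tested on simulated data. Regions were named by fixed ranks: the 10 highest lower wild-type folds, the 5 highest lower NuMA folds, the 5 highest in each pattern of depleted calls, and the 3 at each end of summit distance and of the overlap rule. Some of these are summarised. Coordinates are 1-based on hg19. No genome or annotation of that build was used, so genes and sequences were not analysed here. Scripts ran in Python 3.11.15 with pandas 2.3.3, numpy 2.4.6, matplotlib 3.10.9 and scipy 1.17.1. The alternatives were other overlap rules, a stricter q, lists of equal length, other definitions of the sites, each replicate left out and the replicate number as a block.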

Additional observations from a re-analysis of the deposited data

Results flagged for a closer look

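Peaks on the mitochondrial genome, left out of the comparisons of H1 and NuMA, exceeded the 3 that a count of 0 allows in 3 of 6 lists. The wild-type H1 lists held 5 in replicate 1 and 6 in replicate 2. The depleted H1 lists held 3 in replicate 1, which is not above that limit, and 5 in replicate 2. The C-terminal list held 1 and the N-terminal list 0. Their part in the peak calls was not tested.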

How the results depend on the processing

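Of 99 values recomputed, 71 stayed within their spread or direction, 26 moved beyond it and 2 changed sign. The cause of the moves was not tested unless named. The 398 regions became 127 with a reciprocal overlap of 50%, 114 with summits within 200 bp and 70 with H1 lists of equal length, all stricter rules, and 662 to 680 without 1 wild-type replicate, which drops a condition. The share called in depleted replicate 1 went from 58.5% to 70.0% with equal lists, 40.7% with that list alone shortened (added after seeing the data) and 42.9% to 44.1% without 1 wild-type replicate. That in depleted replicate 2 went from 28.4% to 20.5% with reciprocal overlap, 22.8% with summits within 200 bp, 47.1% with equal lists and 19.6% to 22.2% without 1 wild-type replicate. In the same order of overlap rules, the median distance to the C-terminal summit fell to 149 and 90 bp and that to the N-terminal summit to 152 and 91.5 bp (204.5 bp with equal lists), and the central share rose to 64.6% and 67.5%, since both rules favour close summits. The C-terminal width became 644 and 710.5 bp (649.5 bp with equal lists), and the C-terminal fold 4.96 with summits within 200 bp and 5.04 with C-terminal peaks alone as sites. Between the H1 groups, the difference in distance was 2.75 bp with equal lists (exact permutation p = 0.667) in place of −7.5 bp, and −9 to −6 bp with 1 library left out. The difference in central share ran from −1.03 to 4.76 percentage points, with the sign change without depleted replicate 1 (−1.03, exact permutation p = 0.667). With the replicate number as a replicate block the differences were −7.5 bp (exact permutation p = 0.5) and 1.87 points (exact permutation p = 1). Same-numbered libraries share only a number: the correlation of their deviations over 10398 sites was 0.027. A summit of 10 to 101 fragments limits both calls and summit positions.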

Other observations

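Some NuMA sites had an H1 peak in depleted libraries and none in wild type. Of the 475 peaks of depleted replicate 1 at NuMA sites, 125 (26.3%, 22.4 to 30.5) overlapped no wild-type H1 peak, against 27.2% (25.4 to 29.2) of its 2141 peaks elsewhere. Of the 199 peaks of depleted replicate 2 at NuMA sites, 36 (18.1%, 13.0 to 24.2) overlapped none, against 21.7% (19.5 to 24.1) of its 1281 others. The intervals overlap in both libraries. Of the 42 regions called in both depleted and no wild-type list, 7 lay at NuMA sites, beside 16.0% of the 2485 shared wild-type H1 regions. So small a count does not show a difference from that share. Among the 7, chr6:20401512-20401971 had depleted folds of 6.94 and 6.41, chr19:58987235-58987626 had 6.45 and 6.38, and chr11:16809783-16810154 had 5.50 and 4.55. These 3 were picked after their values were seen.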
